A study of Mus musculus with 7 samples.

Results

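The cytosolic ribosomal protein genes encode the protein subunits of the ribosome that translates nuclear-encoded mRNA. Members were taken by symbol from the deposited count table (the Rpl, Rps, Rplp and Rpsa names, without pseudogenes and Rps6 kinases), and a gene was kept where its counts summed to at least 100 over the 7 libraries. Of 84 matching names, 81 were kept, 49 of the large and 32 of the small subunit, out of 21878 genes in the table. All 81 were tested. The 3 names left out were Rpl3l, a striated-muscle paralog of Rpl3 with 48 counts in all (13, 4, 6 and 0 counts in the libraries labelled DKO, against 1, 4 and 20 in those labelled ApoE-/-), Rpl39l with 21 counts and Rpl10l with 0. The members nearest above the limit were Rpl32l with 173 counts and Rpl22l1 with 4430.

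Abdominal aortas were taken from male C57BL/6 mice, 8 weeks old by the labels, that received the pressor peptide angiotensin II (Ang II) over at most 28 days. DKO 1 to DKO 4 are the 4 libraries labelled ApoE-/-Nur77-/- (double knockout), and ApoE 1 to ApoE 3 are the 3 libraries labelled ApoE-/-. By the labels all mice thus lacked ApoE, a lipoprotein component without which cholesterol accumulates in plasma, and the comparison asks what the added loss of Nur77 does. Nur77 (gene Nr4a1) is an orphan nuclear receptor. No promoter, Cre line, deleted exon or exposure time per mouse is labelled, nor whether the libraries stem from different mice, and p-values therefore measure only the spread between these libraries, which may be technical.

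Gene counts summed to 19949042, 20962376, 21727192 and 20141537 in the libraries labelled DKO, against 21205934, 21138207 and 19295287 in those labelled ApoE-/-. The counts of neither targeted gene show the labelled loss. Nr4a1 had 46.2, 57.0, 90.1 and 92.7 CPM (counts brought to a common library size, here scaled by the trimmed mean of M-values, TMM) in the libraries labelled DKO, against 193, 56.4 and 111 CPM in those labelled ApoE-/- (log2 fold change -0.75, SE 0.42, adjusted p = 0.360 with edgeR). Apoe, a knockout in both groups by label, had 34.7, 18.3, 33.8 and 28.1 CPM in the libraries labelled DKO, against 233, 250.3 and 184 CPM in those labelled ApoE-/- (log2 fold change -2.95, SE 0.23, adjusted p = 0.0227 with edgeR). The Apoe call was lost in 8 of 21 alternatives, with the log2 fold change between -3.07 and -2.72 in all of them: leaving out ApoE 1 (edgeR adjusted p = 0.159), ApoE 2 (0.0895), ApoE 3 (0.0848), DKO 3 (0.225) or DKO 4 (0.0566) ended it. Counts per gene do not show which exons were read, so neither value checks a deletion, and every direction below is that of the libraries labelled DKO against those labelled ApoE-/-. Smooth muscle markers were abundant throughout (6 genes summing to 7924 to 28719.6 CPM in the libraries labelled DKO and to 15041 to 23452 CPM in those labelled ApoE-/-). The libraries ApoE 2 and ApoE 3 stood apart by atrial cardiomyocyte markers, whose 7 genes summed to 15.7 to 35.7 CPM in the libraries labelled DKO and to 22.8, 309.8 and 1138 CPM in ApoE 1, ApoE 2 and ApoE 3.

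A ribosome joins a small subunit, which holds the mRNA and decodes it, to a large subunit, which forms the peptide bond and carries the exit tunnel. The ribosomal proteins are made in close to equal numbers, and their mRNAs are among the most abundant of any cell. Many of these mRNAs begin with a 5′ terminal oligopyrimidine (TOP) tract, a cytidine followed by a run of pyrimidines, through which the growth kinase complex mTORC1 and the binding protein LARP1 adjust their translation. Vascular cells that grow or divide need more ribosomes, and mRNA levels alone do not measure translation.

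On the TMM scale, ribosomal protein mRNA was slightly less abundant in the libraries labelled DKO, in both subunits and by nearly the same share. Little of the difference remained when the trend of level with transcript length was removed from each library. The members' median log2 fold change was then 0.041 for the large and 0.033 for the small subunit, against 0.0045 over all genes. Without that step the subunit medians were -0.17 and -0.18. On the TMM scale the libraries' medians varied within groups by a pooled SD of 0.098 (large) and 0.096 (small). The 49 large-subunit genes summed to 15759, 14518, 15785 and 15398 CPM in DKO 1 to DKO 4, against 19303, 16382 and 17059 CPM in ApoE 1 to ApoE 3. The 32 small-subunit genes summed to 11151, 9991, 11156 and 10716 CPM in the libraries labelled DKO, against 13385, 11525 and 11809.6 CPM in those labelled ApoE-/-. Each library labelled DKO lay below each library labelled ApoE-/- in both sums, and ApoE 1 was the highest of all. The difference in means was -12.6% for the large and -12.1% for the small subunit, and over all 81 genes the sums averaged 26119 ± 1139 CPM (SD, n = 4) in the libraries labelled DKO and 29821 ± 2529 CPM (SD, n = 3) in those labelled ApoE-/-, a difference of -12.4% that was -7.9% without ApoE 1. In bulk tissue, fewer cells rich in these mRNAs and less of the mRNA per cell cannot be told apart.

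The size of this difference also depended on the scaling. As a share of all counts, before TMM, the 81 genes made up 2.82, 2.49, 2.79 and 2.54% in the libraries labelled DKO, against 3.11, 2.87 and 2.74% in those labelled ApoE-/-, so that the groups overlapped (difference in means -8.52%). In the deposited FPKM (fragments per kilobase, scaled to depth), which are per length, the 81 genes made up 10.3, 9.35, 10.2 and 9.27% of the summed FPKM of all genes in the libraries labelled DKO, against 10.6, 10.2 and 9.25% in those labelled ApoE-/-. On that scale the means differed by -2.45% and the groups overlapped fully: ApoE 3 was the lowest library and ApoE 1 the highest. The summed FPKM itself, not divided by the total, averaged 31292 ± 1899 (SD, n = 4) in the libraries labelled DKO. It averaged 34192 ± 3001 (SD, n = 3) in those labelled ApoE-/-, a difference of -8.48% with overlap. Member by member, every library labelled DKO lay below every library labelled ApoE-/- for 28 genes in the share of all counts (9.21% of all genes), for 19 in FPKM (9.65%) and for 12 in the share of summed FPKM (6.31%). Every one lay above for 0 genes in the share of all counts (7.37% of all genes), for 1 in FPKM (6.91%) and for 1 in the share of summed FPKM (11.4%).

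**Figure D1:**
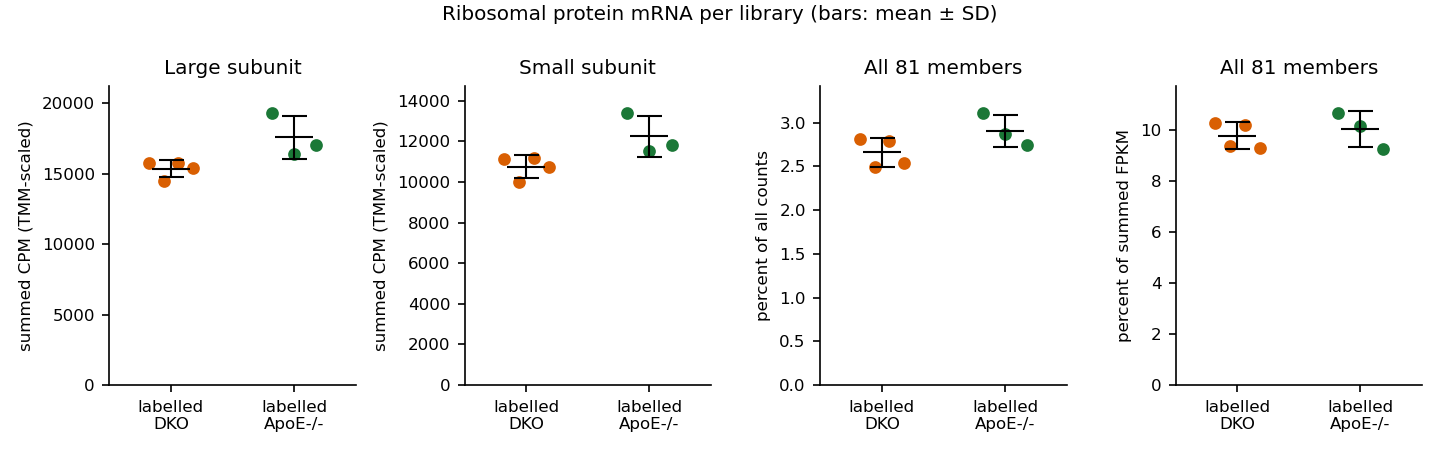
Summed level of ribosomal protein mRNA in each library, as TMM-scaled CPM of the large and small subunit and as percent of all counts and of summed FPKM over 81 genes; points are libraries (4 labelled DKO, 3 labelled ApoE-/-) and bars are mean ± SD. The groups are separate for both TMM-scaled sums and overlap for both shares.

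The balance between the subunits differed between the groups by less than the spread of libraries. The ratio of small-subunit to large-subunit CPM was 0.708, 0.688, 0.707 and 0.696 in the libraries labelled DKO, against 0.693, 0.704 and 0.692 in those labelled ApoE-/-, means of 0.700 ± 0.00929 (SD, n = 4) and 0.696 ± 0.00620 (SD, n = 3). The ranges overlapped.

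No single ribosomal protein gene passed the test over all genes. edgeR's quasi-likelihood test with Benjamini-Hochberg adjustment called 0 of 81 members lower (0.0274% of 14609 tested genes were) and 0 higher (0.00% of all genes), and the members' adjusted p ranged from 0.149 to 0.991. On the TMM scale most members had the same sign: 77 of 81 fold changes were negative, 46 of 49 in the large and 31 of 32 in the small subunit, against 52.6% of all tested genes. At an unadjusted p under 0.05, 30 members were lower (18 large, 12 small), or 37.0% of members against 11.8% of all genes, and 0 were higher, against 8.00% of all genes. For 35 members (21 large, 14 small) every library labelled DKO lay below every library labelled ApoE-/-, against 9.24% of all genes, and for 0 members did every one lie above, against 7.08% of all genes. With the length trend removed, 30 members were negative and 51 positive (50.7% of all genes were positive), and at an unadjusted p under 0.05, 4 were lower (9.67% of all genes) and 1 was higher (8.54%). The 30 lower members became 10 without ApoE 1, 15 without ApoE 3, 16 without DKO 1 and 17 without DKO 2, and 8 to 12 in FPKM. The 11.8% of all genes belongs to the main fit, and the shares of all genes in these other fits are not given here. Whether these smaller counts exceed the share of all genes in their own fits is thus not shown. The members share the same libraries, so these counts are not independent of one another. The median log2 fold change was -0.17 for the large and -0.18 for the small subunit, against -0.021 over all tested genes. Other tools called more: DESeq2 called 14 members lower (9 large, 5 small; 4.80% of genes it tested were lower) and 0 higher (3.23% of genes were). limma voom with sample weights called 21 members (13 large, 8 small; 16.2% of all genes were called in either direction), all of them lower. The 14 of DESeq2 were all among the 21.

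**Figure D2:**
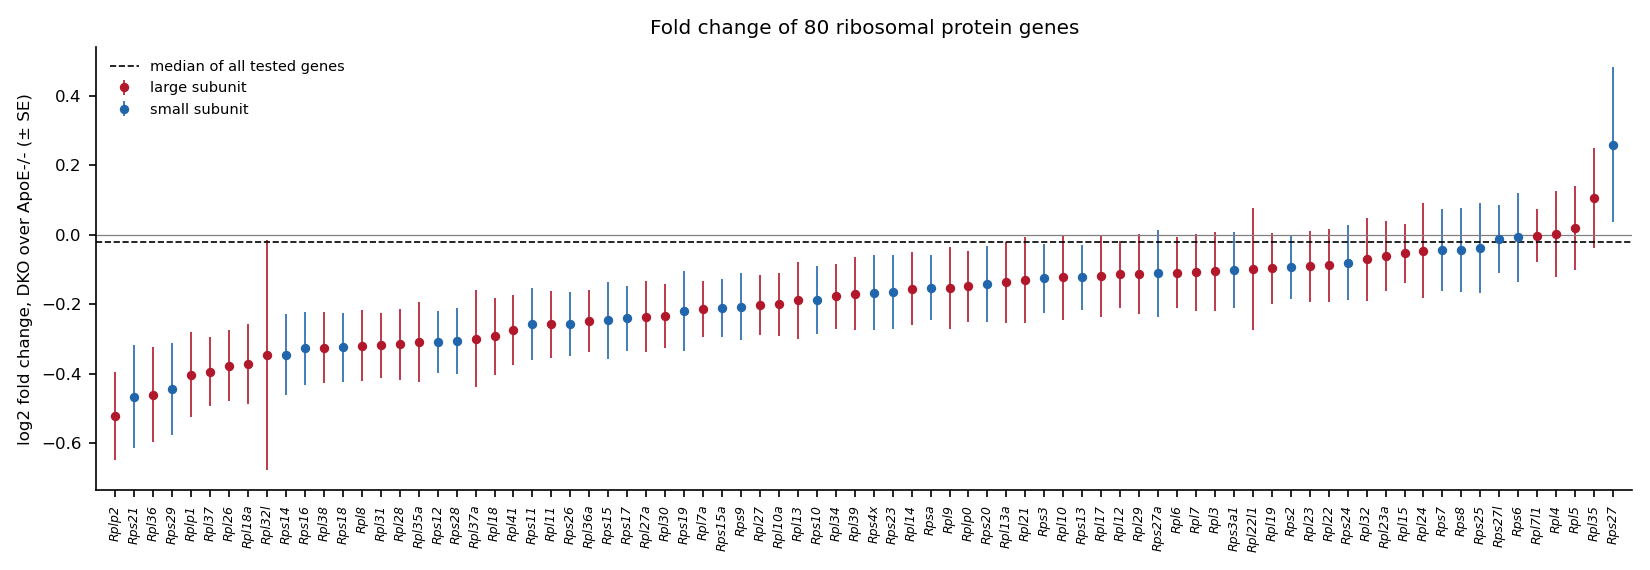
Log2 fold change of libraries labelled DKO over libraries labelled ApoE-/- for 80 of the 81 ribosomal protein genes, ordered by fold change, with SE as bars and the median of all tested genes as a dashed line. The values run from -0.52 for Rplp2 to 0.26 for Rps27, and 76 of the 80 are below 0.

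Among the large-subunit genes, 2 of the 3 lowest fold changes lay in the lateral stalk, the flexible arm that recruits elongation factors. The transcripts of these 3 genes are short: 449 bases for Rplp2, 383 for Rpl36 and 499 for Rplp1. With the length trend removed, their log2 fold changes were -0.21, -0.13 and -0.11. Rplp2 (chromosome 7, 141447651 to 141451359, GRCm38.p6), an acidic stalk protein, had 319.9, 295, 314 and 353 CPM in the libraries labelled DKO, against 476, 385 and 518 CPM in those labelled ApoE-/-. The groups did not overlap. Its log2 fold change, -0.52 (SE 0.13, adjusted p = 0.149 with edgeR), was the most negative of the 81. Its dimer partner Rplp1 (chromosome 9, 61913283 to 61914510) had 587, 575, 611 and 688 CPM in the libraries labelled DKO, against 887, 707 and 847 CPM in those labelled ApoE-/-. DKO 4 and ApoE 2 lay nearest each other, and the groups did not overlap (log2 fold change -0.40, SE 0.12, edgeR adjusted p = 0.166). Rplp0, the stalk base that carries both, had 852, 781, 787 and 726 CPM in the libraries labelled DKO, against 902, 836 and 878 CPM in those labelled ApoE-/-. These overlapped (log2 fold change -0.15, SE 0.10, adjusted p = 0.443 by edgeR). The ratio of Rplp2 to Rplp0 counts was 0.376, 0.378, 0.398 and 0.486 in the libraries labelled DKO, against 0.528, 0.461 and 0.590 in those labelled ApoE-/-, and DKO 4 lay within the ApoE-/- range. DESeq2 (adjusted p = 0.00723) and limma voom (adjusted p = 0.0246) both called Rplp2.

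In the order of large-subunit fold changes, Rpl36 lay between Rplp2 and Rplp1, and Rpl37 and Rpl26 followed Rplp1. Rpl36 (chromosome 17, 56610094 to 56614246) had 175, 160.0, 191 and 211 CPM in the libraries labelled DKO, against 275, 212 and 274 CPM in those labelled ApoE-/- (log2 fold change -0.46, SE 0.14, edgeR adjusted p = 0.163). DKO 4 and ApoE 2 were almost equal. Rpl37 averaged 237 ± 19.7 CPM (SD, n = 4) in the libraries labelled DKO and 312 ± 18.1 CPM (SD, n = 3) in those labelled ApoE-/-. Rpl26, which lies near the exit tunnel, had 349, 333, 357 and 396 CPM in the libraries labelled DKO, against 493, 426 and 479 CPM in those labelled ApoE-/-. Neither gene's groups overlapped, and the log2 fold changes were -0.39 and -0.38 (adjusted p = 0.156 and 0.158 with edgeR). Rpl41, the shortest of the ribosomal proteins, had 525, 531, 529.9 and 580.4 CPM in the libraries labelled DKO, against 688, 592 and 685 CPM in those labelled ApoE-/- (log2 fold change -0.27, SE 0.10, edgeR adjusted p = 0.206), again without overlap.

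At the other end, 3 large-subunit genes had positive fold changes, each smaller than its SE. Rpl35, which sits at the tunnel exit, had 282, 254, 269 and 227 CPM in the libraries labelled DKO, against 285, 237 and 197 CPM in those labelled ApoE-/- (log2 fold change 0.11, SE 0.14, edgeR adjusted p = 0.721). Rpl5, which binds the ribosomal RNA of the central protuberance together with Rpl11 and, when free, the p53 ligase Mdm2, had 481, 416, 446 and 368 CPM in the libraries labelled DKO, against 463, 402 and 400.2 CPM in those labelled ApoE-/- (log2 fold change 0.020, SE 0.12, edgeR adjusted p = 0.944). Its partner Rpl11 had 292, 277, 301 and 295 CPM in the libraries labelled DKO, against 385, 317 and 342 CPM in those labelled ApoE-/-, without overlap (log2 fold change -0.26, SE 0.10, adjusted p = 0.209 with edgeR). Rpl4, a core protein of the tunnel wall, averaged 671 ± 48.2 CPM (SD, n = 4) in the libraries labelled DKO and 669.8 ± 88.9 CPM (SD, n = 3) in those labelled ApoE-/- (log2 fold change 0.0029, SE 0.12, edgeR adjusted p = 0.991).

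In the small subunit, Rps21 and Rps29 had the lowest fold changes. Their transcripts are also short (394 and 390 bases), and with the length trend removed the log2 fold changes were -0.13 and -0.12. Rps21 (chromosome 2, 180257379 to 180258444) had 138, 119.5, 154 and 161 CPM in the libraries labelled DKO, against 218, 161 and 214 CPM in those labelled ApoE-/- (log2 fold change -0.47, SE 0.15, edgeR adjusted p = 0.170). DKO 4 and ApoE 2 met at the edge of the groups. Rps29, a zinc-binding protein of the subunit's head, had 337, 299.6, 363 and 402 CPM in the libraries labelled DKO, against 503, 417 and 512 CPM in those labelled ApoE-/- (log2 fold change -0.45, SE 0.13, edgeR adjusted p = 0.163). Rps26, a protein of the mRNA exit channel, averaged 244 ± 8.99 CPM (SD, n = 4) in the libraries labelled DKO and 291 ± 26.9 CPM (SD, n = 3) in those labelled ApoE-/-, without overlap (log2 fold change -0.26, SE 0.09, edgeR adjusted p = 0.200). Rps23, a protein of the decoding centre, had 455, 419, 489.5 and 457 CPM in the libraries labelled DKO, against 569, 479 and 483 CPM in those labelled ApoE-/-, with DKO 3 above ApoE 2 and ApoE 3 (log2 fold change -0.16, SE 0.11, edgeR adjusted p = 0.421).

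Rps27 was the only small-subunit gene with a positive fold change. It had 198, 149, 147 and 117 CPM in the libraries labelled DKO, against 162, 124 and 97.1 CPM in those labelled ApoE-/- (log2 fold change 0.26, SE 0.22, adjusted p = 0.544 with edgeR). The groups overlapped, with DKO 1 highest and ApoE 3 lowest. Without ApoE 2 and ApoE 3, the libraries with atrial markers, its log2 fold change was -0.090, and with the length trend described below removed it was 0.62. The retrogene Rps27rt had 5.55, 4.22, 3.24 and 3.02 CPM in the libraries labelled DKO, against 2.83, 3.49 and 3.49 CPM in those labelled ApoE-/-. Ribosomal protein genes have near-identical processed copies across the genome, and how the authors' counting divided shared reads was not stated in any source used, so the level of any one member is uncertain to that extent.

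**Figure D3:**
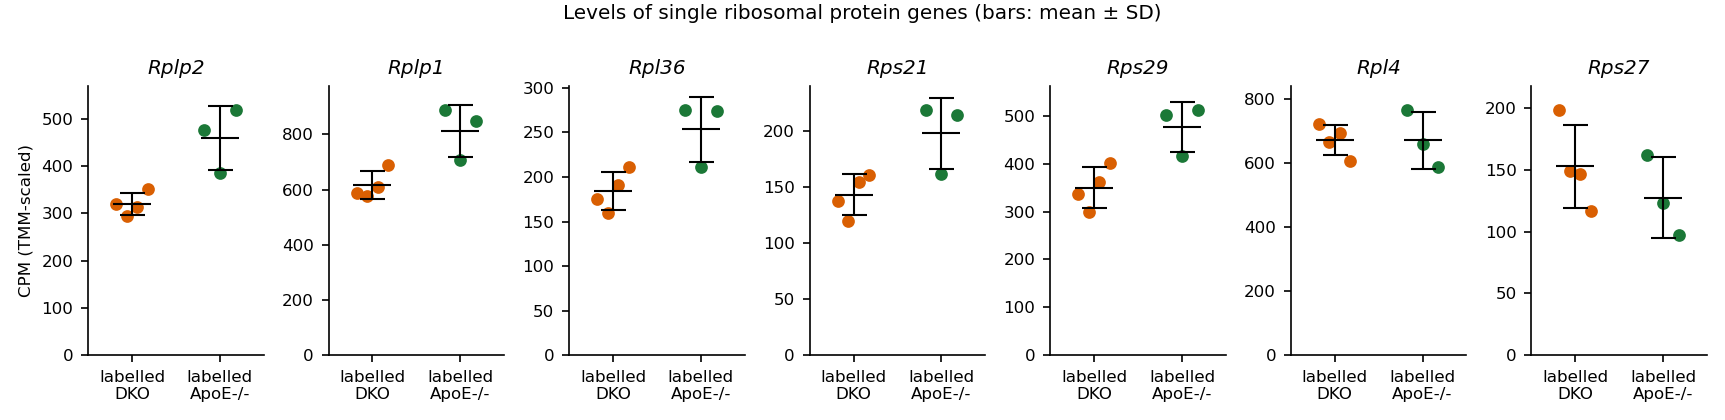
TMM-scaled CPM of 7 ribosomal protein genes in each library; points are libraries (4 labelled DKO, 3 labelled ApoE-/-) and bars are mean ± SD. The groups are separate for Rplp2, Rplp1, Rpl36, Rps21 and Rps29, and overlap for Rpl4 and Rps27.

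RefSeq promoters (GRCm38.p6) were at hand for 61 of the 81 genes, and the bases around the annotated start are shown for the 4 of these with the lowest and the 4 with the highest fold changes, since that is where a TOP tract begins. Each line runs 5′ to 3′ on the gene's own strand, from 15 bases before the start to the first 15 transcribed bases, and capitals mark a tract: a C followed by at least 4 more C or T, beginning within 5 bases of the annotated start.

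Rplp2 (chr7:141447636-141447665, plus strand): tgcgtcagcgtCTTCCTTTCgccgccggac

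Rps21 (chr2:180257364-180257393, plus strand): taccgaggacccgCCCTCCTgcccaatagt

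Rpl37 (chr15:5116598-5116627, plus strand): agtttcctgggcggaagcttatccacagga

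Rpl26 (chr11:68901551-68901580, plus strand): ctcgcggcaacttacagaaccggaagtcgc

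Rpl4 (chr9:64173372-64173401, plus strand): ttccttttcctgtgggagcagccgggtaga

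Rpl5 (chr5:107900513-107900542, plus strand): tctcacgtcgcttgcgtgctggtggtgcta

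Rpl35 (chr2:39005117-39005146, minus strand): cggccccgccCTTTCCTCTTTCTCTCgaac

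Rps27 (chr3:90213634-90213663, minus strand): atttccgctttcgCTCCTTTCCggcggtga

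Tracts stood at both ends of the order: Rplp2 and Rps21 had one, and so did Rpl35 and Rps27. Rps21 has 2 annotated starts, and the window of the other (chr2:180257434-180257463, plus strand) held no tract. A gene with a tract at any of its starts was counted as having one. Of the 72 start windows of the 61 genes, 32 (44.4%) held a tract on the sense strand, against 6027 of 32851 windows (18.3%) of all RefSeq promoters. The 30 genes with a tract (18 large, 12 small) stood at a median log2 fold change of -0.18 (range -0.52 to 0.26), and the 31 without had -0.15 (range -0.39 to 0.020). Annotated starts can lie a few bases off the start in use. A missing match says only that no tract begins within 5 bases of the annotated start. The Rpl4 line, for example, holds a C followed by more than 4 pyrimidines further upstream, which was not counted.

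The 7 libraries did not differ alike within their groups. ApoE 1 held the highest value of 71 of the 81 genes, DKO 2 the lowest of 55 and DKO 4 the lowest of 14. Between libraries of the same label, the median member was 0.24 higher on the log2 scale in ApoE 1 than in ApoE 2 (79 of 81 genes higher), and 0.13 higher in DKO 1 than in DKO 2 (77 of 81). These are of the order of the difference between the groups. Without ApoE 1 the median log2 fold changes were -0.096 (large) and -0.11 (small), and with ApoE 1 as the only library of its label they were -0.34 and -0.32.

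**Figure D4:**
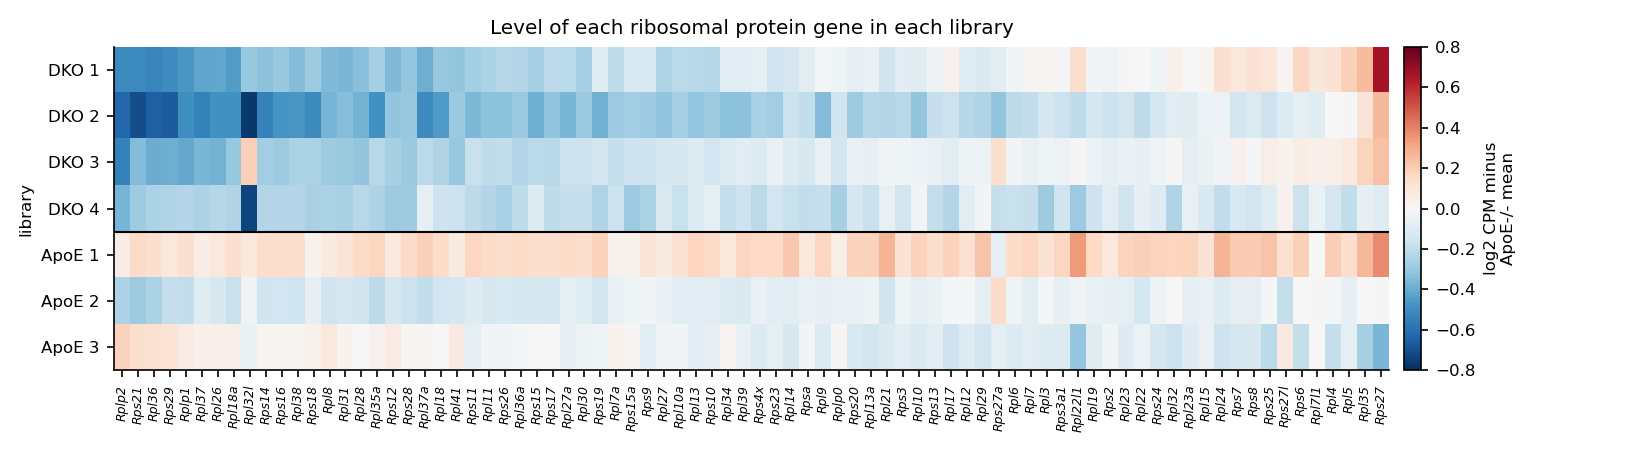
Level of 80 of the 81 ribosomal protein genes (columns, ordered by fold change) in each library (rows, 4 labelled DKO above 3 labelled ApoE-/-), as log2 CPM minus the ApoE-/- mean. Over all 81 genes, ApoE 1 is highest for 71 and DKO 2 lowest for 55, and the genes at the right, from Rpl4 to Rps27, follow another order of libraries.

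The members were also set against their own sum, a scale that centres them and so cannot show a change of the whole set. With the summed member counts as library size, 0 members were called lower (0.0137% of all genes) or higher (0.00%), 44 fold changes were positive and 37 negative. On that scale the median of all tested genes moved to 0.17, against -0.021 with TMM. At an unadjusted p under 0.05, 2 members were lower, against 4.37% of all genes, among them Rplp2 (log2 fold change -0.33), and Rpl35 (0.30) was higher, 1 member against 21.1% of all genes. Rps27 had the largest fold change on that scale (0.46, SE 0.20, edgeR unadjusted p = 0.0504, adjusted p = 0.197) and took 0.585 ± 0.121% (SD, n = 4) of the member counts in the libraries labelled DKO and 0.425 ± 0.0816% (SD, n = 3) in those labelled ApoE-/-, with overlap. For 5 members, among them Rpl11, Rpl31, Rplp2 and Rps26, the share of member counts was lower in every library labelled DKO (3.05% of all genes), and for 8, among them Rps2, Rps24, Rps25 and Rpl15, it was higher in every one (18.7% of all genes). The other 68 overlapped. Rplp2 took 1.19, 1.20, 1.16 and 1.35% of the member counts in the libraries labelled DKO, against 1.46, 1.38 and 1.79% in those labelled ApoE-/-.

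Fold changes rose with transcript length, in other genes over the whole range and in the members up to 2000 bases. The median log2 fold change was -0.34 for members with GENCODE transcripts under 500 bases (12 genes), -0.20 at 500 to 750 bases (28), -0.15 at 750 to 1000 bases (23) and -0.12 at 1000 to 1500 bases (11). Genes outside the cytosolic and mitochondrial ribosomal proteins had medians of -0.36, -0.26, -0.17 and -0.15 in the same bins, and 0.12 at 5000 bases or more. Members at 1500 to 2000 bases (3 genes) had -0.0021 (other genes -0.081), and those at 2000 to 3000 bases (2 genes) had -0.034 (other genes -0.022). The longest members lay below other genes of their length. Rps20, the 1 member at 3000 to 5000 bases, had -0.14 (other genes 0.032) and Rps15a, the 1 member above that, had -0.21. Across the 81 genes, Spearman's rho between fold change and length was 0.45 and between fold change and mean CPM -0.015, as a description over genes that share the same libraries. Other genes with transcripts under 750 bases had median log2 levels, relative to the ApoE-/- mean, of -0.400, -0.321, -0.289 and -0.102 in the libraries labelled DKO, against 0.0388, -0.152 and 0.111 in those labelled ApoE-/-. When the trend in length was removed from each library, the members' median log2 fold change was 0.039 (0.041 large, 0.033 small), with 51 positive (50.7% of all genes were) and 30 negative. At an unadjusted p under 0.05, 4 members were then lower (among them Rps15a, Rplp2 and Rpl37; 9.67% of all genes) and 1 was higher (Rps27l; 8.54% of all genes), and 0 passed after adjustment. Rps15a was assigned a transcript of 5130 bases, the longest of the members (the next was Rps20 with 3706), so its value on that scale of -0.29 rests on that length. The part of RNA length or quality in the members' difference was not tested beyond this.

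**Figure D5:**
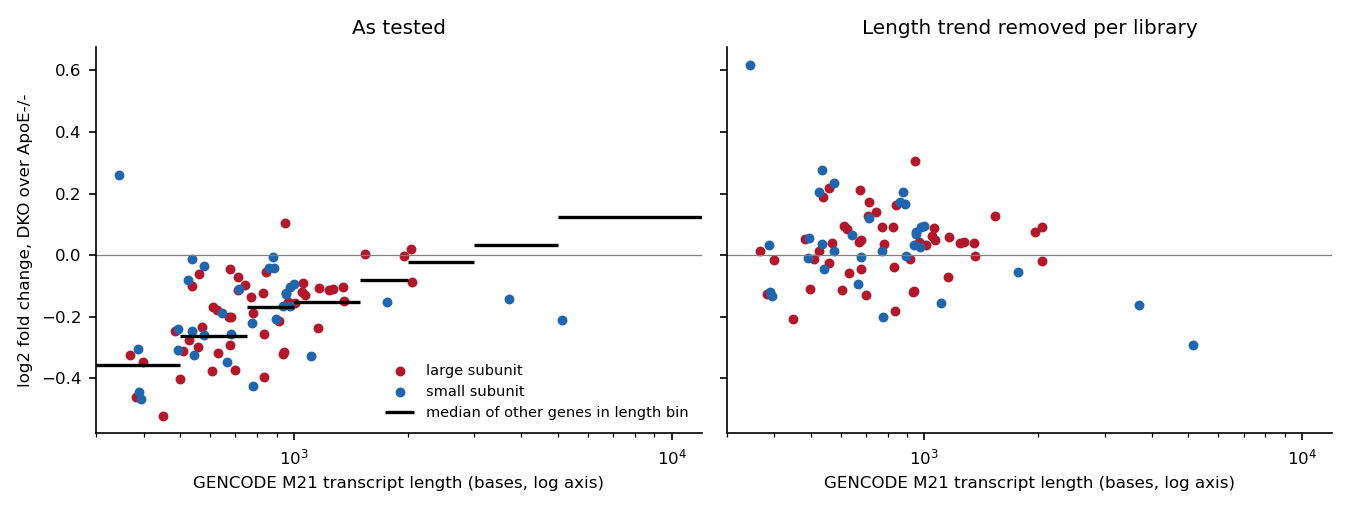
Log2 fold change of libraries labelled DKO over libraries labelled ApoE-/- against transcript length (bases, log axis) for 81 ribosomal protein genes, as tested (left, black lines mark medians of other genes by length bin) and with the length trend removed from each library (right). Most members lie near the medians of other genes on the left, the 2 longest below them, and on both sides of 0 on the right.

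Levels between genes can be set side by side in FPKM. Rps29 (1648 FPKM, mean of 7 libraries), Rpl41 (1532) and Rplp1 (1286) were the most abundant, followed by Rps23 (975), Rps26 (787) and Rplp2 (755). Rplp2 averaged 653 ± 39.6 FPKM (SD, n = 4) in the libraries labelled DKO and 889.9 ± 94.97 FPKM (SD, n = 3) in those labelled ApoE-/-, so that it stood below Rpl26 (679.9 ± 43.1 FPKM) in the first and above it (823.6 ± 50.9 FPKM) in the second. The next in order, Rpl32 (662), Rpl28 (653), Rps12 (642) and Rpl10 (634), lay closer to each other than the SD of Rpl32 within either group. At the low end stood Rpl32l (2.09), Rpl7l1 (19.9) and Rps27l (29.0). The order rests on the authors' gene lengths. In CPM per kilobase of the GENCODE transcript, Rplp1, Rpl41, Rps29 and Rplp2 ranked at places 1, 2, 4 and 6. On that scale Rps23 stood only at place 30 and Rps26 at place 46. Rps24 ranked at place 70 in FPKM but at place 3 in CPM per kilobase.

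For the 4 paralogs (Rpl22l1, Rps27l, Rpl7l1 and Rpl32l) the groups overlapped in CPM. Rpl22l1, the paralog of the RNA-binding Rpl22, stood to Rpl22 in a count ratio of 0.182, 0.166, 0.175 and 0.142 in the libraries labelled DKO, against 0.184, 0.179 and 0.138 in those labelled ApoE-/-. These ranges overlapped almost fully. Rps27l, a p53-responsive paralog of Rps27, had 63.3, 57.9, 63.8 and 64.2 CPM in the libraries labelled DKO, against 68.0, 54.7 and 65.8 CPM in those labelled ApoE-/- (log2 fold change -0.012, SE 0.10, edgeR adjusted p = 0.958). On other scales its groups were apart: it had 30.3, 31.5, 28.9 and 29.5 FPKM in the libraries labelled DKO, against 28.5, 26.01 and 28.5 FPKM in those labelled ApoE-/-. As a share of member counts, Rps27l and Rpl7l1 were higher in every library labelled DKO. Rpl7l1 averaged 63.3 ± 3.73 CPM (SD, n = 4) in the libraries labelled DKO and 63.4 ± 0.371 CPM (SD, n = 3) in those labelled ApoE-/-, and Rpl32l had 0.797 to 1.55 CPM in the libraries labelled DKO, against 1.31 to 1.44 CPM in those labelled ApoE-/- (log2 fold change -0.35, SE 0.33, edgeR adjusted p = 0.588).

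On the TMM scale, genes that work with the ribosome shared the direction only in part, and edgeR called 0 of them. Their lists had median transcript lengths of 1311 to 2982 bases, against 771 for the members. With the length trend removed, the medians were 0.085 for ribosome-associated and fusion genes, -0.016 for elongation and -0.019 for initiation factors. They were 0.067 for RNA polymerase I and assembly and -0.072 for mTORC1 and TOP mRNA control, against 0.039 for the members. The counts below are at an unadjusted p under 0.05, where 11.8% of all tested genes were lower and 8.00% were higher. The median log2 fold change over 10 tested genes of ribosome-associated and ribosomal fusion proteins, 1 of which (Rps27a) is itself a member, was -0.13, with 2 lower and 1 higher at an unadjusted p under 0.05. Elongation factors and related genes (12 genes, 1 or 8.33% lower and 0 higher) had a median of -0.11. The 1 lower gene was Eef2k, the kinase that slows elongation, which is not itself an elongation factor. It had 73.3, 70.3, 70.2 and 89.5 CPM in the libraries labelled DKO, against 128, 96.9 and 113 CPM in those labelled ApoE-/- (log2 fold change -0.57, SE 0.13, edgeR adjusted p = 0.146). Initiation factors (36 genes, 7 or 19.4% lower and 3 higher) had a median of -0.08, and Eif3l, a subunit of the initiation factor that binds the small subunit, had a log2 fold change of -0.32 (SE 0.08, edgeR adjusted p = 0.153).

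RNA polymerase I and ribosome assembly genes were split in direction. The median over their 47 tested genes was -0.0057 on the log2 scale, with 23 positive and 24 negative, and 8 were higher and 5 (10.6%) lower at an unadjusted p under 0.05, against 8.00% and 11.8% of all genes. Utp20, a factor of small-subunit processing, had 33.2, 34.3, 33.3 and 26.03 CPM in the libraries labelled DKO, against 23.6, 23.1 and 24.5 CPM in those labelled ApoE-/- (log2 fold change 0.42, SE 0.12, adjusted p = 0.158 with edgeR). The 31 genes of mTORC1 and TOP mRNA control had a median of -0.14 (5 or 16.1% lower, 2 higher), and Mtor, the kinase of the complex, had 67.4, 69.3, 68.1 and 72.4 CPM in the libraries labelled DKO, against 88.4, 82.9 and 108 CPM in those labelled ApoE-/- (log2 fold change -0.43, SE 0.10, adjusted p = 0.150 with edgeR). The 77 mitochondrial ribosomal protein genes, which serve the separate ribosome of mitochondria, had a median of -0.34, 76 of them negative and 39 lower at an unadjusted p under 0.05 (11.8% of all genes). With the length trend removed, the median of these mitochondrial genes was -0.21, against 0.039 for the cytosolic members.

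Markers of other cell types differed in level between the libraries. The 6 white adipocyte markers summed to 2029 to 3109 CPM in the libraries labelled DKO and to 4222 to 6446 CPM in those labelled ApoE-/-, all 6 with negative fold changes. The 5 brown adipocyte markers summed to 215 to 492 CPM in the libraries labelled DKO and to 573 to 1665 CPM in those labelled ApoE-/-, all 5 negative. No adipocyte marker was at 0 in any library. The 5 cycling-cell markers summed to 67.2 to 153 CPM in the libraries labelled DKO and to 48.2 to 72.3 CPM in those labelled ApoE-/-, all 5 with positive fold changes and none at 0. The 7 atrial markers, above, had negative fold changes in the 6 that were tested. Of them, Nppa was at 0 in DKO 1, DKO 3, DKO 4 and ApoE 1, Myl7 in DKO 4 and ApoE 1, Sln in DKO 3 and DKO 4, and Myh6 in DKO 4. In the remaining marker lists the groups overlapped in summed CPM. All tested macrophage (5), T cell (4), B cell (4) and erythroid (3) markers had positive fold changes. All smooth muscle (6) and Schwann cell (4) markers had negative ones. Fibroblast, endothelial and skeletal muscle markers were split, with 3 of 6, 3 of 5 and 4 of 5 negative. The part of any of these markers in the members' levels was not tested. By chromosome, 14 members lie on chromosome 7, which also carries Apoe. All 14 were negative, as were 63 of the 67 other members and 59.9% of the 1128 tested genes of that chromosome. The median log2 fold changes of these 3 sets were -0.24, -0.15 and -0.077, and with the length trend removed -0.023, 0.042 and -0.051.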

How the data were processed

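Sequencing libraries were made with a strand-marking TruSeq mRNA kit, per the labels' protocols. The submitters' processing notes name Trimmomatic, HISAT2, HTSeq, Cufflinks, DESeq and the GRCm38.p6 build, without versions or roles. Gene annotation, filters and strand setting were not stated in any source used. The deposited gene counts are whole numbers, not normalized by the authors. The deposited FPKM values were scaled by the authors for gene length and depth.

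Of 21878 genes (27 date-like symbols restored from their identifiers; 4054 with no count), filterByExpr (minimum count 10) kept 14609. Counts were TMM-scaled and tested with edgeR 4.0.16 (quasi-likelihood; R 4.3.3), adjusted over all tested genes at 0.05. DESeq2 1.42.0 and limma 3.58.1 were alternatives. SE was obtained from the log2 fold change and its F statistic. A count of 0 allows up to 3 counts, or 0.133 to 0.164 CPM, counting error only. The length trend was a lowess curve (span 0.3) of log2 CPM on GENCODE M21 transcript length, known for 96.9% of tested genes. The fits were tested on simulated counts. Alternatives also included RLE factors, other count minimums, each library left out, a replicate block and limma on log2 FPKM.

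Members and lists were chosen with earlier results of these data known. Named genes were Nr4a1 and Apoe; per subunit the 3 highest by FPKM, the 3 largest positive and the 3 largest negative fold changes; paralogs ending in l; and the smallest p of each related list. Rplp0, Rpl11, Rpl37, Rpl26, Rps15a, Rps27rt and members named only in counts were added after their values were seen. Some genes that the rule names are not reported here.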

Additional observations from a re-analysis of the deposited data

Results flagged for a closer look

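A value in 1 of the 4 libraries labelled DKO stood far from the other 3 (gap over range above Dixon's 95% critical value) in 6 of 110 results examined, where chance flags about 1 in 20. DKO 4 was high for Eef2k (89.5 CPM, the others 70.2 to 73.3) and Rpl41 (580.4 CPM, the others 525 to 531), and low for Utp20 (26.03 CPM, the others 33.2 to 34.3). DKO 2 was low for Rps18 (281 CPM, the others 328 to 336) and Rps27l (57.9 CPM, the others 63.3 to 64.2). DKO 1 was high for the ratio of Rplp2 to Rplp1 counts (0.545, the others 0.513). The cause was not tested. For Eef2k, Rpl41 and Utp20 the outlying value was the one nearest to the libraries labelled ApoE-/-. The outlying ratio of Rplp2 to Rplp1 lay within the range of the libraries labelled ApoE-/- (0.537 to 0.612).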

How the results depend on the processing

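The number of all genes called (4) was 0 with ApoE 2 and ApoE 3 left out together, 1126 with DESeq2, 2369 with limma voom, 0 with log2(FPKM + 1) unfiltered, 0 with the replicate block, and 0 to 6 with 1 library left out (1 without DKO 2 or ApoE 2; 0 without DKO 3, DKO 4, ApoE 1 or ApoE 3). Members called (0) were 14 with DESeq2, 21 with voom and 0 otherwise. At an unadjusted p under 0.05, 24 were lower with the replicate block, and the share of all genes in that fit is not given here. Same-numbered libraries deviated together for number 2 but not for the other numbers (r of -0.31, 0.69 and 0.049 for numbers 1 to 3). Differently numbered libraries had r from -0.71 to 0.51. With so few libraries r cannot settle whether the numbers mark pairs, and they were not taken as pairs. The median log2 fold change of the large subunit was -0.34 with ApoE 2 and ApoE 3 left out, 0.041 with the length trend removed, -0.168 with the replicate block and -0.23 to -0.096 with 1 library left out; of the small subunit -0.32, 0.033, -0.176 and -0.21 to -0.11, and -0.080 and -0.079 in FPKM with pseudocounts of 0.1 and 1. The summed level (-12.4%) was -15.1 to -7.9% with 1 library left out, -8.48% in summed FPKM and -2.45% as a share of summed FPKM. That share, and leaving out ApoE 2 and ApoE 3, were chosen after seeing the data.

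Of 24 named genes, 15 kept their sign under every alternative; Apoe lost its call under 8 of 21. Rpl22l1 turned positive with the length trend removed (0.19), in FPKM (0.041 with 0.1 added, 0.040 with 1 added, filtered or not), relative to the member sum (0.097) and without a library (-0.24 to 0.090). Rpl41 (0.012) and Rps23 (0.033) turned positive with the length trend removed, Rps23 also relative to the member sum (0.027). Rpl35 (-0.15), Rpl4 (-0.19), Rpl5 (-0.12) and Rps27 (-0.090) turned negative with ApoE 2 and ApoE 3 left out, and Rpl4 (-0.052) and Rpl5 (-0.0034) with voom. With 1 library left out, Rpl35 ranged from -0.018 to 0.25, Rpl4 from -0.085 to 0.11, Rpl5 from -0.021 to 0.094, Rpl7l1 from -0.015 to 0.046 and Rps27l from -0.10 to 0.050. Rpl7l1 (-0.0021) and Rps27l (-0.012) were positive with DESeq2 (0.025, 0.017), RLE size factors (0.025, 0.016), the length trend removed (0.074, 0.28), no TMM (0.059, 0.053), FPKM with 0.1 added (0.062, 0.12) or 1 added, filtered or not (0.059, 0.11), and relative to the member sum (0.18, 0.18). Rpl7l1 was also positive with voom (0.018), a minimum count of 50 (0.0015) and the replicate block (0.012). The causes were not tested.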
